A study of Tetranychus urticae with 4 samples.

Results

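The genes tetur16g03650, tetur452g00010 and tetur16g03670 of the two-spotted spider mite Tetranychus urticae were followed on 4 microarrays that set diapausing adult females (DIA) against non-diapausing adult females (NON-DIA). They are 3 of the 10 genes that the study's list of cysteine peptidases places in family C2, the calpain-type peptidases, out of 18217 genes on the array. The 3 genes were chosen by their measured DIA over NON-DIA ratios, namely a clear fall for tetur16g03650 and falls that depended on the probe for the other two. Their ratios are therefore given as a description, without a test. A gene was matched to a probe, a short oligonucleotide spot on the array, when the gene's identifier stood in the gene names of that spot. This gave 11 of the 55469 probes that list a gene, of which 2 also list a second gene.

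All mites came from the laboratory strain LS-VL and were reared together at 17 °C and 80% relative humidity with 8 h of light and 16 h of darkness a day, a regime under which only some of the females enter diapause. Each DIA sample was total RNA of 250 whole diapausing females labelled with Cy5, and each NON-DIA sample total RNA of 100 whole non-diapausing females labelled with Cy3. Replicates 1 to 4 were hybridised as DIA and NON-DIA pairs, 1 pair per array. The dyes were not swapped, and so what a dye does to a probe cannot be told apart from what diapause does. In RNA of whole mites, fewer cells of a type and less RNA per cell cannot be told apart either.

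Cysteine peptidases cut proteins with a catalytic cysteine, and in spider mites they include the main digestive proteases of the gut. Diapausing females stop feeding and laying eggs. Calpains are calcium-dependent peptidases of the cytosol that make limited cuts in cytoskeletal and signalling proteins, whereas legumains, usually classed as family C13, cut after asparagine in acidic compartments such as lysosomes and, in ticks, in the gut. The study's list holds both labels for the same genes. It gives family C2 for tetur16g03650, tetur452g00010 and tetur16g03670 and names them TuLeg-15, TuLeg-19 and TuLeg-13, all described as legumain. The same double label is found in 10 of 10 genes listed as C2, and the 2 genes listed as C13 are also named legumain. Which of the labels applies was not tested, since no protein or probe sequence of these genes was used here, and they are called C2-listed genes.

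On the 4 arrays, between 69.2% and 72.1% of the spots for genes were well above background in DIA and between 67.2% and 69.5% in NON-DIA, and 49 to 114 spots per array were left out because the scanner software had marked them as non-uniform or as outliers. No spot was saturated. Probes had to exceed the background clearly, by the software's own criterion, in DIA or in NON-DIA on at least 2 arrays, which kept 40200 probes and 14986 genes. The state of the mites was checked on 6 vitellogenin genes, which encode yolk proteins: all 6 were lower in DIA on all 4 arrays, by 213-fold to 596-fold on the mean of the arrays. Replicate 4 stood apart in this check, with log2 ratios between −6.28 and −5.27 for the 6 genes, where replicates 1 to 3 had ratios of −7.60 or lower. Without replicate 4 the falls were 378-fold to 1442-fold. The highest DIA signal at the probes of these genes was 17290 on replicate 4, against 3361, 2987 and 4586 on replicates 1 to 3. In NON-DIA it was 571794 on replicate 4, against 613514, 550168 and 468112. The median log2 ratio of all genes was 0.10 as normalized by the software and 0.47 when each array was scaled on its added spike-in RNAs. The values below can be read against these medians. On single arrays the scaled medians were 0.15, 0.83, −0.05 and 0.90 for replicates 1 to 4, so the shift towards DIA came mainly from replicates 2 and 4. The spike-in offsets of single arrays were −0.03 and 0.13 for replicates 1 and 3, from the same column of the slide, and −0.74 and −0.81 for replicates 2 and 4, from the other column.

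Of the 11 probes of the C2-listed genes, 9 were kept and 2 were not well above background in either group on any array. Among the 9, 5 probes had a mean at least 2-fold lower in DIA, and each of these was lower on all 4 arrays with every DIA signal below every NON-DIA signal. Over the whole array, 9.62% of kept probes had a mean at least 2-fold lower in DIA, and in 24.8% every DIA signal lay below every NON-DIA signal. Since the genes were picked on this contrast, nothing is read from the difference. The falling probes had means between 2.28-fold and 4.52-fold lower in DIA and came from all 3 genes. The other 4 kept probes, 1 of tetur452g00010 and 3 of tetur16g03670, had overlapping groups and were higher in DIA on replicates 1 to 3 and lower on replicate 4.

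tetur16g03650 was lower in DIA on both of its kept probes. At probe 37771 the processed signals, in arbitrary units, were 623, 740, 646 and 686 in the DIA samples of replicates 1 to 4, against 2675, 1845, 2624 and 2645 in the NON-DIA samples. At probe 37772 they were 1249, 1578, 1426 and 1403 in DIA, against 6878, 7082, 4735 and 7119 in NON-DIA. The groups did not overlap at either probe, and the DIA samples lay closer together than the NON-DIA samples, in which replicate 2 was low at probe 37771 and replicate 3 at probe 37772. The log2 ratio of DIA over NON-DIA was −1.85 ± 0.36 at probe 37771 and −2.18 ± 0.32 at probe 37772 (SD, n = 4 arrays), which is 3.60-fold and 4.52-fold lower in DIA.

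The third probe of tetur16g03650, 37773, was not well above background on any array. Its signals ranged between 9.88 and 29.9 in DIA and between 6.52 and 15.4 in NON-DIA, and no ratio is drawn from it. The gene value, the mean over the 2 kept probes, was −2.28, −1.74, −1.88 and −2.15 on replicates 1 to 4, with a mean of −2.01 ± 0.25 (SD, n = 4 arrays), or 4.03-fold lower in DIA. Its probe means lay 0.33 apart on the log2 scale, where the median over the 1908 genes with 2 kept probes was 0.26. Spike-in scaling gave −1.65, still more than 2-fold lower. No probe of this gene lists another gene.

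**Figure D1:**
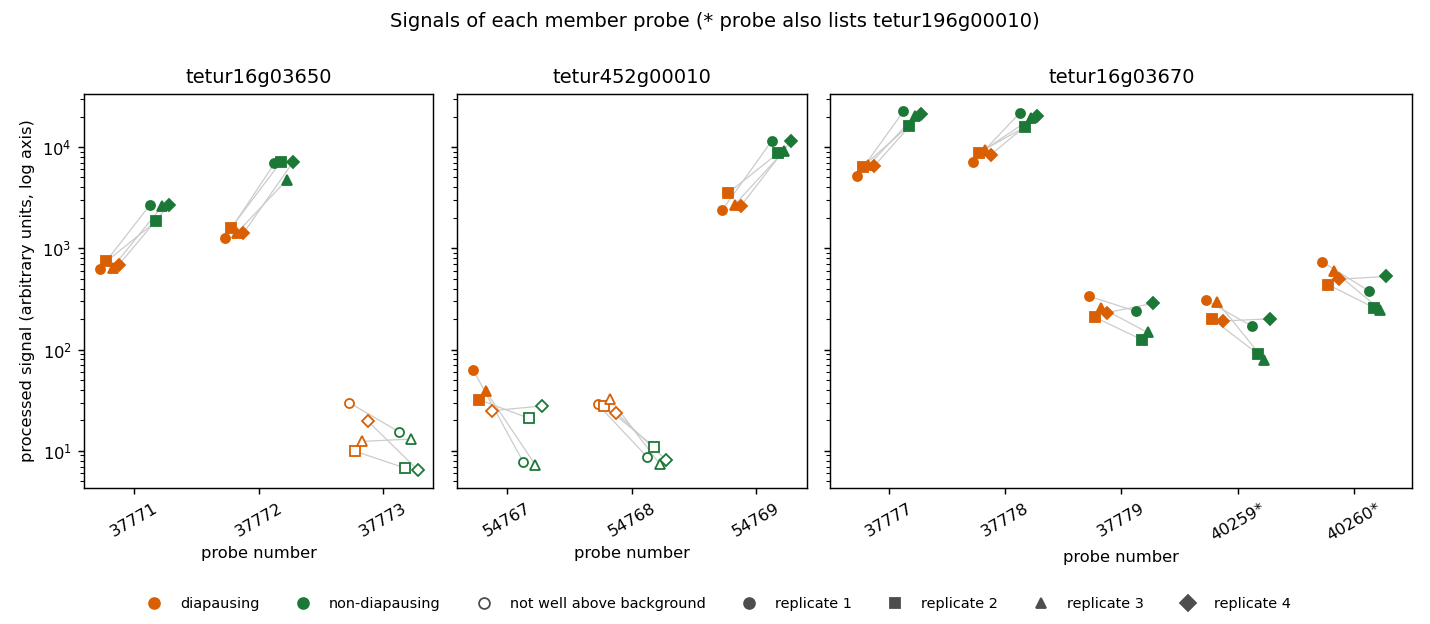
Processed signal (arbitrary units, log axis) of each probe of the 3 C2-listed genes, with DIA left and NON-DIA right and each array's pair joined by a grey line. Open markers are not well above background. At probes 37771, 37772, 54769, 37777 and 37778 all 4 DIA samples lie below all 4 NON-DIA samples, and at the other probes the groups overlap or are not well above background in one or both groups.

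tetur452g00010 fell at the only probe that was well above background in both groups. Probe 54769 had signals of 2385, 3526, 2696 and 2619 in DIA, against 11561, 8728, 9208 and 11341 in NON-DIA. Every DIA sample was below every NON-DIA sample, and replicate 2 held both the highest DIA and the lowest NON-DIA signal. The log2 ratio was −1.87 ± 0.43 (SD, n = 4 arrays), or 3.65-fold lower in DIA, close in size to the probes of tetur16g03650.

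The second kept probe of tetur452g00010, 54767, was near the background. Its signals were 62.7, 31.9, 39.02 and 24.9 in DIA, well above background on the first 3 of these arrays, against 7.83, 20.9, 7.25 and 27.7 in NON-DIA, not well above background on any. DIA was higher on replicates 1 to 3 and lower on replicate 4. No fold is drawn from this probe, since its NON-DIA level is not measured. The ratio of its processed signals, which enters the gene value, had a log2 mean of 1.47 ± 1.49 (SD, n = 4 arrays), and after normexp background correction it was 0.19 with loess and 0.08 with median centring. The third probe, 54768, was not well above background in either group, with signals of 23.8 to 32.6 in DIA and 7.36 to 11.03 in NON-DIA.

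Averaging probes 54767 and 54769 gave gene values of 0.36, −0.35, 0.33 and −1.13 on replicates 1 to 4, with a mean of −0.20 ± 0.70 (SD, n = 4 arrays). The gene value thus rests on which probe enters: it was −1.87 without probe 54767 and 1.47 without probe 54769. Without replicate 4 it was 0.11, and with spike-in scaling 0.16, so its sign was not stable. By slide column it was 0.34 on replicates 1 and 3 and −0.74 on replicates 2 and 4. The disagreement of its probes, for which the gene was chosen, rests on probe 54767, which was kept through DIA alone. Whether the difference of replicate 4 in the vitellogenin check has a part in these values was not tested.

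tetur16g03670 was measured by 5 probes, all well above background in both groups on all arrays, and they split by probe. Probe 37777 had signals of 5151, 6397, 6583 and 6510 in DIA, against 22451, 16300, 20234 and 21327 in NON-DIA. Probe 37778 had 7075, 8812, 9417 and 8370 in DIA, against 21604, 15868, 19187 and 20030 in NON-DIA. At both probes the groups did not overlap, replicate 1 had the lowest DIA and the highest NON-DIA signal, and replicate 2 the lowest NON-DIA signal. The log2 ratios were −1.70 ± 0.32 at probe 37777 and −1.19 ± 0.33 at probe 37778 (SD, n = 4 arrays), or 3.25-fold and 2.28-fold lower in DIA. Spike-in scaling left probe 37778 at −0.82, less than 2-fold lower.

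The other 3 probes of tetur16g03670 did not fall. Probe 37779, which lists no other gene, had 335, 207, 259 and 232 in DIA, against 239, 125, 147 and 286 in NON-DIA, a log2 ratio of 0.43 ± 0.51 (SD, n = 4 arrays). The shared probe 40259 had 308, 202, 295 and 192 in DIA, against 170, 90.2, 79.6 and 201 in NON-DIA, a log2 ratio of 0.96 ± 0.81. The shared probe 40260 had 736, 439, 598 and 495 in DIA, against 381, 258, 248 and 527 in NON-DIA, a log2 ratio of 0.72 ± 0.58. At all 3 probes DIA was higher on replicates 1 to 3, the NON-DIA sample of replicate 4 was the highest of its group, and the groups overlapped. None of the 3 means reached 2-fold as normalized by the software. With spike-in scaling, 40259 and 40260 stood at 1.32 and 1.08, so that they were then past 2-fold higher. After normexp background correction they stood lower, both at 0.47 with loess, and at 0.67 and 0.77 with median centring. Leaving out 1 replicate gave 0.65 to 1.30 for 40259 and 0.54 to 0.99 for 40260.

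The mean over the 5 probes was −0.29, 0.09, 0.26 and −0.69 on replicates 1 to 4, giving −0.15 ± 0.42 (SD, n = 4 arrays) for tetur16g03670. Without the 2 shared probes the gene value was −0.82, and the median over probes was 0.43. Leaving out replicate 4 gave 0.02 and spike-in scaling 0.21, so the sign of the gene mean was not stable. The probe means spanned 2.66 on the log2 scale, which describes the disagreement for which the gene was chosen.

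**Figure D2:**
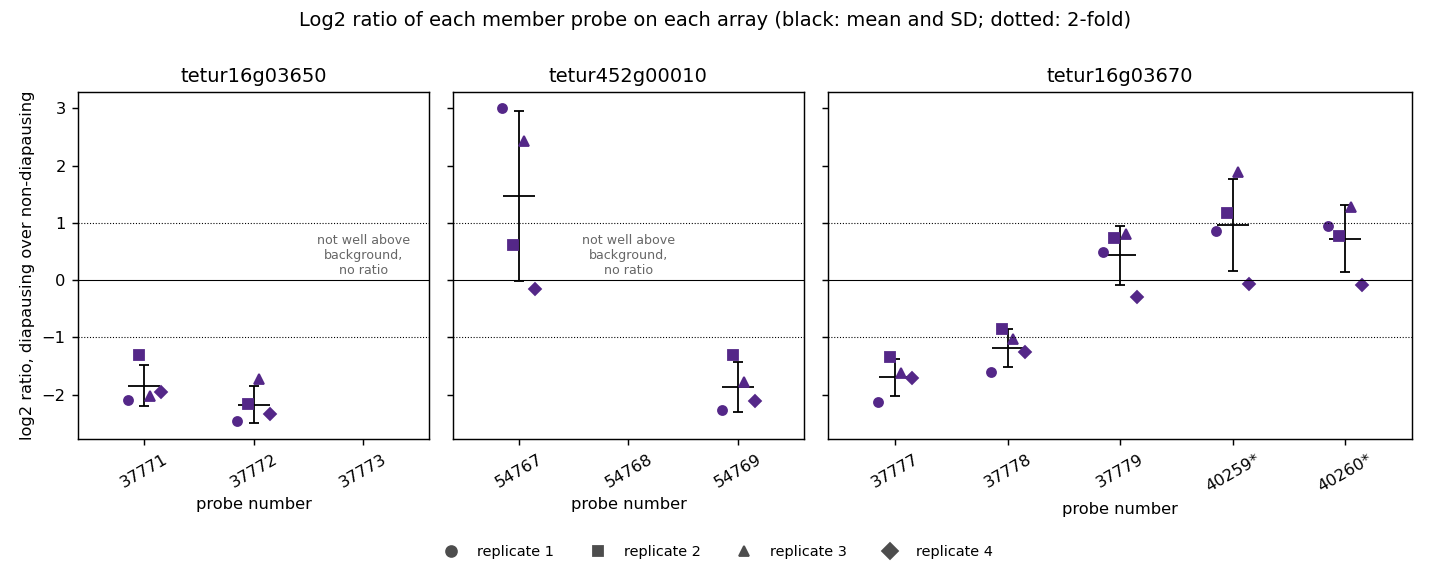
Log2 ratio of DIA over NON-DIA at each probe and array, with the mean and SD over 4 arrays in black and dotted lines at 2-fold. Asterisks mark probes that also list tetur196g00010. Means lie at −1.85 and −2.18 for tetur16g03650 and between −1.70 and 0.96 for tetur16g03670. For tetur452g00010 the mean of probe 54769 lies at −1.87. The 1.47 plotted for its probe 54767 is a ratio of processed signals. That probe was not well above background in NON-DIA on any array, and no fold is drawn from it.

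The shared probes of tetur16g03670 also list tetur196g00010, to which the sources used here give no function, so their signal cannot be assigned to one gene. tetur196g00010 had 1 probe of its own, 40258, with signals of 55.4, 45.9, 37.7 and 42.6 in DIA, against 122, 80.5, 103 and 129 in NON-DIA. The groups did not overlap, and the log2 ratio was −1.25 ± 0.35 (SD, n = 4 arrays). Probes 37777 and 37778, listed for tetur16g03670 alone, and probe 40258, listed for tetur196g00010 alone, were lower in DIA on every array. Probe 37779, also listed for tetur16g03670 alone, was higher on 3 of 4 arrays, as were the probes listed for both genes. The probes also differed in signal: 37777 and 37778 had signals of 5151 to 22451, and 37779, 40259 and 40260 had 79.6 to 736. Probe 40258, which fell, was dimmer than all of these except for part of the range of 40259, at 37.7 to 129. Why the probes split was not tested. Over its 3 probes tetur196g00010 had a gene mean of 0.14 ± 0.51 (SD, n = 4 arrays, adjusted p = 0.556 in limma over all genes).

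The identifiers next to it repeat this layout. tetur16g03680, TuPap-31, a cathepsin L of the papain-like family C1A, shares 5 of its 6 probes with tetur196g00020, a gene looked at after the values of tetur196g00010 had been seen, and the 4 kept probes of both genes are the same. The gene value of tetur16g03680 was higher in DIA on all 4 arrays, with a log2 ratio of 1.17 ± 0.28 (SD, n = 4 arrays, adjusted p = 0.00102 in limma), or 2.26-fold. As every kept probe also lists tetur196g00020, this rise cannot be assigned to either gene alone. The only probe of tetur16g03680 that lists no other gene, 37780, was not well above background on any array. By its gene value tetur16g03680 was 1 of 3 genes of the list of cysteine peptidases that were called higher, all of them among its 35 C1A genes. Of all 14986 genes tested, 1355 were called higher, so nothing is read from this count.

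Among the genes whose identifiers lie within 3 steps of tetur16g03650 or tetur16g03670 on the same scaffold, tetur16g03640 was called higher in DIA, at 1.46 ± 0.23 (SD, n = 4 arrays, adjusted p = 0.00038 in limma), with 1 of its 2 kept probes shared with tetur16g03790. Its other kept probe, 37769, was near the background, with signals of 77.5 to 99.1 in DIA and 19.7 to 42.4 in NON-DIA. In NON-DIA that probe was well above background on 2 arrays. tetur16g03700 was lower by less than 2-fold, at −0.66 ± 0.25 (SD, n = 4 arrays, adjusted p = 0.00474), and tetur16g03620 stood at −0.52 ± 0.90 (SD, n = 4 arrays, adjusted p = 0.235). The genes tetur16g03630, tetur16g03660 and tetur16g03690 had no kept probe. The neighbours called higher were thus tetur16g03640, on 1 shared probe and 1 probe near the background, and tetur16g03680, on shared probes only. Over the whole array, 1355 of 14986 genes tested were called higher, and nothing is read from the position of these genes. tetur452g00010 has no neighbour on its scaffold among the genes of the array.

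**Figure D3:**
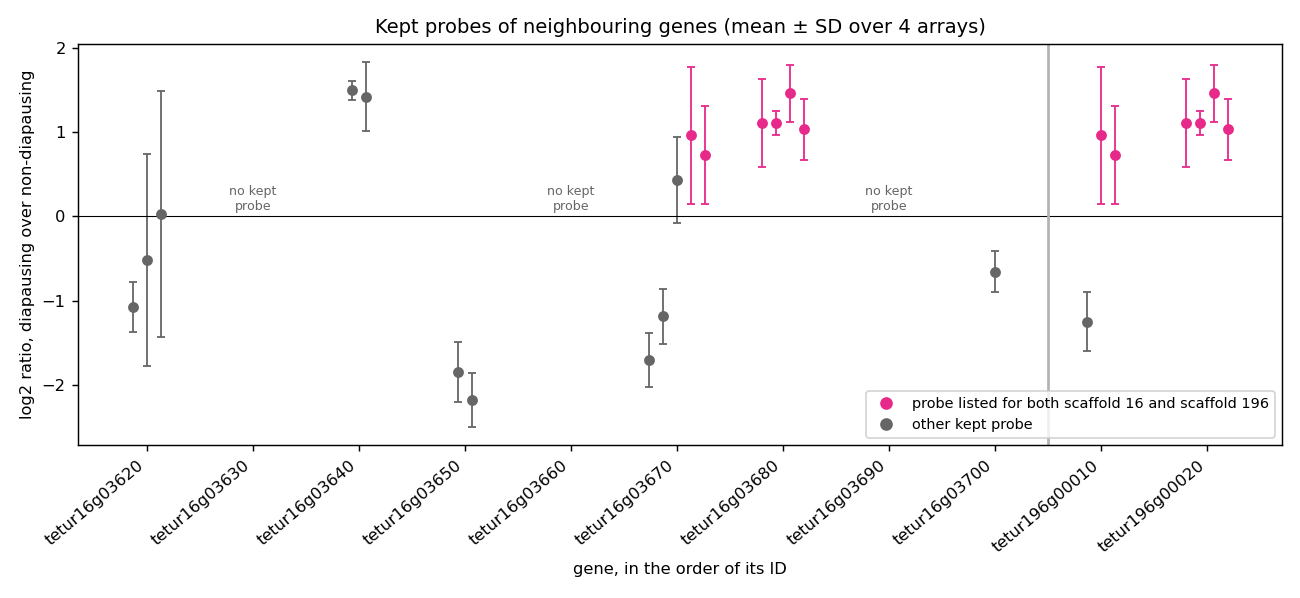
Log2 ratio of DIA over NON-DIA (mean and SD over 4 arrays) of each kept probe of the genes around tetur16g03650 and tetur16g03670, in the order of their identifiers, and of tetur196g00010 and tetur196g00020. Probes listed for genes of both scaffolds are pink and appear under both, with means between 0.72 and 1.46.

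The other 7 C2-listed genes were all called lower in DIA, at an adjusted p under 0.05 in limma and at least 2-fold, where 9.1% of all genes tested were called lower. The study chose this list on the same samples, so the count is not independent evidence of a direction. The strongest fall was that of tetur05g04710, 4.001-fold with a log2 SD of 0.35 (n = 4 arrays, adjusted p = 0.00039), and the weakest that of tetur08g06030, at a log2 ratio of −1.14 ± 0.30 (SD, n = 4 arrays, adjusted p = 0.00132). The median log2 ratio of the 7 was −1.76, against a median of 0.10 over all genes. All 7 were lower on all 4 arrays. The 4.03-fold fall of tetur16g03650 was close to that of tetur05g04710, and the falling probes 54769, 37777 and 37778 lay within the range of the 7 genes, whereas the gene values of tetur452g00010 and tetur16g03670 lay outside. The study counts tetur452g00010 and tetur16g03670 among its downregulated genes, whereas their gene values here, −0.20 and −0.15, were less than 2-fold lower.

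Between these ends stood tetur06g03540 at −1.85 ± 0.27 (adjusted p = 0.000278), tetur05g04700 at −1.76 ± 0.36 (adjusted p = 0.000571), tetur60g00020 at −1.75 ± 0.34 (adjusted p = 0.000497), tetur10g00310 at −1.24 ± 0.18 (adjusted p = 0.000351) and tetur05g04550 at −1.80 ± 0.72 (adjusted p = 0.00375), each as SD over 4 arrays with adjusted p from limma. In tetur05g04550, 2 of 3 probes were not well above background in DIA on any array, and its value was −0.60 after normexp and loess, no longer called. The calls of tetur10g00310 and tetur08g06030 were lost with spike-in scaling, at −0.88 and −0.78. After normexp with median centring, and in a test against 2-fold itself, 4 of the 7 were called.

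Shared probes were common in this group but pointed the same way there. Of the 23 different kept probes of the 7 genes, 8 list several genes, all 23 means were lower in DIA, and 22 were at least 2-fold lower, with means from −2.51 to −0.84. tetur05g04700, tetur05g04710, tetur06g03540 and tetur60g00020 share probes among themselves, so their values are not independent of each other. The 2 genes listed as C13 were also called lower: tetur03g02400 at −3.48 ± 0.15 (SD, n = 4 arrays, adjusted p = 3.98e-05 in limma), or 11.1-fold, and tetur02g14360 at −2.02 ± 0.34 (SD, n = 4 arrays, adjusted p = 0.000345), or 4.05-fold, with 5 of 5 kept probes at least 2-fold lower. Of the 35 genes listed as C1A, the papain-like peptidases, 32 were called lower and 3 higher, with a median of −2.09. Over all 14986 genes tested, 1364 were called lower and 1355 higher. The C13 and C1A genes come from the same list, chosen by the study on these samples, so their counts are not independent evidence of a direction either.

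**Figure D4:**
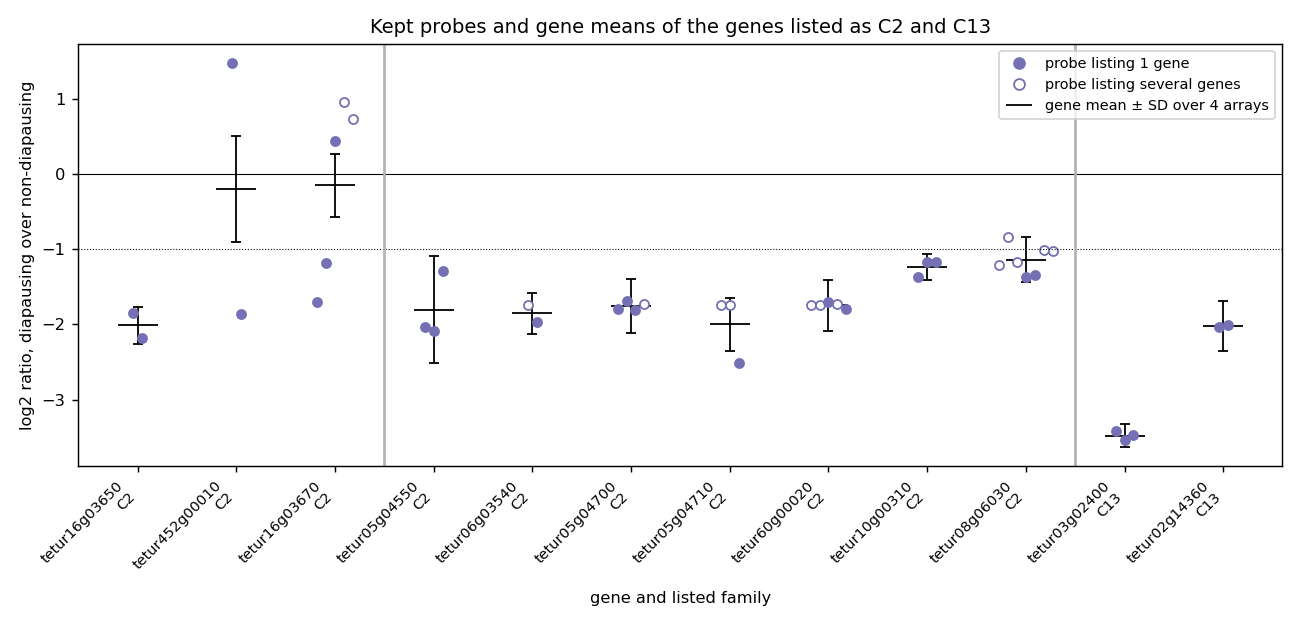
Log2 ratio of DIA over NON-DIA for the genes listed as C2 and C13. Points are means of kept probes (open where a probe lists several genes) and bars are gene means ± SD over 4 arrays. The probes of tetur452g00010 and tetur16g03670 lie on both sides of 0, and those of the other 10 genes all lie below 0. The point of tetur452g00010 above 0 is probe 54767, which was not well above background in NON-DIA on any array.

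The genes nearest in pattern were sought by the Euclidean distance between the 4 gene-level log2 ratios, over 14982 genes. Nearest to tetur16g03650 were tetur22g00040 at a distance of 0.22, tetur35g00210 at 0.25 and the C1A-listed tetur04g08380 at 0.25, and 44 genes lay within 0.5. Nearest to tetur452g00010 were tetur10g04800 and tetur128g00040, which have identical values, at 0.34, and tetur03g04090 at 0.35, and only 4 genes lay within 0.5. Nearest to tetur16g03670 were tetur07g00630 at 0.18, tetur05g05270 at 0.19 and tetur16g03760 at 0.21, with 99 genes within 0.5. For tetur452g00010 and tetur16g03670 these distances compare averages over probes that disagree.

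**Figure D5:**
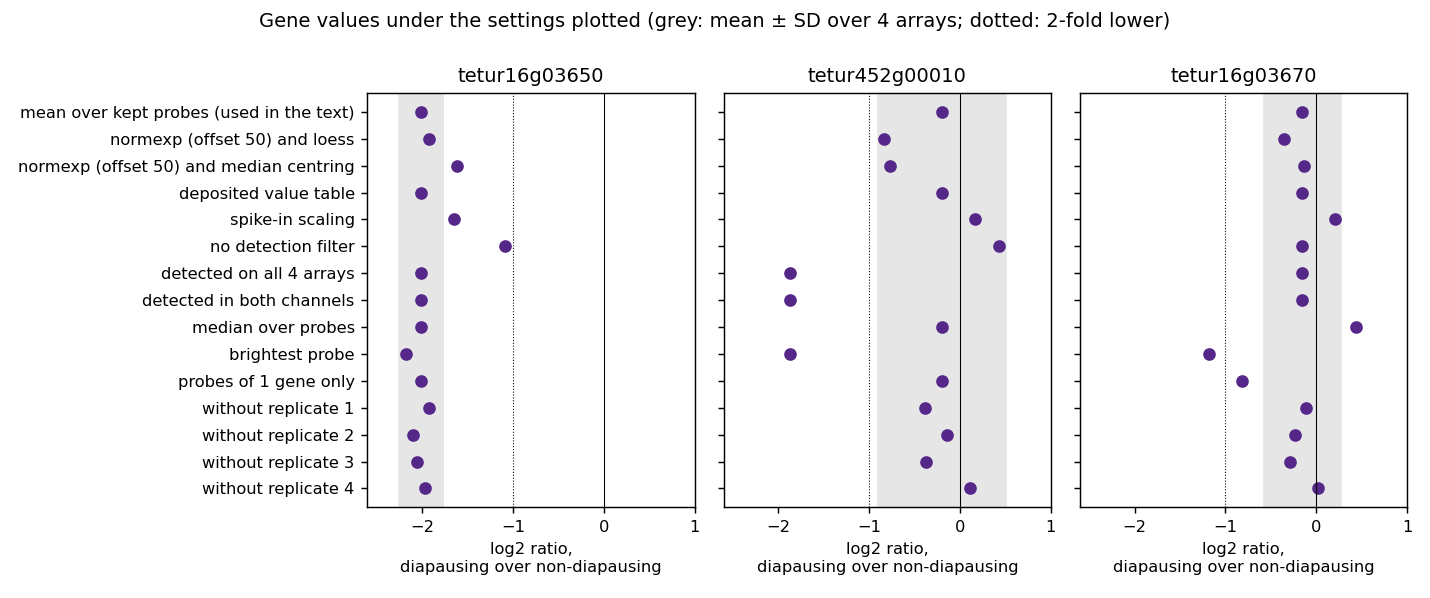
Gene-level log2 ratio of DIA over NON-DIA for the 3 C2-listed genes under the settings plotted, which do not include dropping single probes, with the grey band showing mean ± SD over 4 arrays. Over these settings tetur16g03650 lies between −2.18 and −1.09, whereas tetur452g00010 runs from −1.87 to 0.43 and tetur16g03670 from −1.19 to 0.43.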

How the data were processed

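The 4 two-colour arrays were read from the deposited scanner output. Per the file headers, the authors' software, Agilent Feature Extraction 10.7.1.1, gave for each spot a log10 ratio of Cy5 over Cy3 and processed intensity values after background subtraction and dye normalization within the array. The value table deposited by the authors held the same ratios as log2 values and served as an alternative. Log10 ratios were turned into log2, control spots and marked spots were left out, spots of one probe were averaged, and kept probes were averaged per gene, also where a probe lists several genes. For genes other than the 3, the mean over 4 arrays was tested against 0 with limma 3.58.1 in R 4.3.3, with Benjamini-Hochberg adjustment over 14986 genes, and called at an adjusted p under 0.05 and at least 2-fold. On simulated ratios for 14986 genes, of which 200 were changed by 2 on the log2 scale, the test called 184 of these and 0 others. The simulated ratios were independent normal values without dye effects or shared probes. They therefore do not measure false calls in the real data. At an unadjusted p under 0.05, 10325 genes passed, and 2719 were called.

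The members and lists were chosen with earlier results of these data known. The named genes are the 3 genes, the other C2-listed and C13-listed genes, genes sharing a probe with them, genes up to 3 identifiers away, the 3 nearest patterns of each, and 6 vitellogenins. The study took its RNA from a single population, and nothing states that replicates were separate cultures. The p-values therefore measure the spread between these samples of that population, not between populations. The number of arrays limits the precision. As alternatives, backgrounds were corrected by normexp (offset 50) followed by loess or by median centring, and the other settings were the deposited value table, spike-in scaling, other detection filters, other summaries over probes, and leaving out each replicate. Dropping single probes, using probes of 1 gene above background in both groups, and splitting by slide column were added after seeing the data. A search for calpain and legumain motifs was planned, but the sequences were not analysed here.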

Additional observations from a re-analysis of the deposited data

Results flagged for a closer look

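In 3 of 45 groups of 4 values examined, a sample stood far from the other 3 by Dixon's criterion, which chance alone meets in about 1 in 20 groups. At probe 37771 of tetur16g03650, the NON-DIA signal of replicate 2 was 1845, below the other NON-DIA signals of 2624 to 2675. At probe 37772 of the same gene, the low NON-DIA sample was replicate 3, with 4735 against 6878 to 7119. At probe 37777 of tetur16g03670, the DIA signal of replicate 1 was 5151, below the other DIA signals of 6397 to 6583. In each case every DIA signal remained below every NON-DIA signal.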

How the results depend on the processing

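tetur16g03650 stayed at least 2-fold lower in DIA under every alternative run, at −1.62 after normexp and median centring, −1.65 with spike-in scaling and −1.09 with no detection filter, which adds a probe not well above background. tetur452g00010 was −1.87 with probes detected on all 4 arrays or in both channels, with its brightest probe, with probes of 1 gene above background in both channels and without probe 54767. Without probe 54769 it was 1.47, from probe 54767 alone, whose NON-DIA level is not measured. tetur16g03670 was 0.43 as the median over probes, −1.19 with its brightest probe, and −0.82 with probes of 1 gene, also where these had to be above background in both channels. Leaving out 1 replicate gave −2.10 to −1.92 for tetur16g03650, −0.39 to 0.11 for tetur452g00010 and −0.29 to 0.02 for tetur16g03670. Of the other 7 C2-listed genes, 7 were called, but 4 after normexp and median centring and in the test against 2-fold, 5 with spike-in scaling, 6 after normexp and loess, and 7 whichever replicate was left out. The same rule met by all 10 genes, a description for the 3 genes chosen on these values, gave 8, but 5, 6 and 7 in the same order, 9 with detection on all 4 arrays or in both channels or with probes of 1 gene above background in both channels, 10 with the brightest probe, and 8 whichever replicate was left out. Signals near the background, such as those of probe 54767, limit what can be said of tetur452g00010. Each ratio pairs DIA and NON-DIA on 1 array, and with the channels fitted separately, without this pairing, 6 of the 7 and 7 of the 10 met the rule.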
